A study of Mus musculus with 2 samples.

Results

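The genes of the Id inhibitors *Id2* and *Id3* and of the E proteins *Tcf3*, *Tcf12* and *Tcf4* were followed through single-cell RNA sequencing of TCRβ+ cells. These 5 genes were taken by name from the 32285 genes of the deposited matrices, and all 5 were present in both. The cells came from 2 mice aged 14 weeks, 1 *Foxp3Cre* WT and 1 *Foxp3-Cre Tet2/3 fl/fl* with severe disease (DKO-severe), whose spleen and peripheral lymph nodes (cervical, inguinal) were pooled. Both mice carried Cre driven by *Foxp3*, so the floxed *Tet2* and *Tet3* alleles of the second mouse are deleted in cells that express *Foxp3* and in their descendants, whether or not those still do. The paper adds that this Cre has been considered leaky, and deletion in other cells was not measured here. The genotypes were told apart by antibody hashtags, and the files hold no mark of past *Foxp3* expression. With 1 mouse per genotype, every interval below covers counting error only, no test between genotypes was possible, and differences between these mice cannot be told apart from differences between genotypes.

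E proteins are basic helix-loop-helix transcription factors that bind E-box DNA as dimers. Id proteins carry the helix-loop-helix but lack the basic region, so an E protein paired with an Id protein cannot bind DNA. In T cells, Id2 is known for its part in effector and innate-like cells, and Id3 for its part in resting, memory and follicular cells, while E proteins set up the B cell program and guard early steps of T cell development.

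The E-box (CANNTG, a pattern that reads the same on both strands) was looked for in the RefSeq promoters, 250 bases before to 50 after the annotated start, of the 4 members that have an entry. Of 32851 promoters of this length, 72.3% held 1 or more E-box. The bases before the start of the pair of inhibitor genes are shown because these genes carry most of what follows; capitals mark E-boxes. *Id2* (ENSMUSG00000020644) lies on chromosome 12, from 25093799 to 25097140 on the minus strand, and its 250 bases before the start are chr12:25096093-25096342 in GRCm38.p6. *Id3* (ENSMUSG00000007872) lies on chromosome 4, from 136143497 to 136145755 on the plus strand, and its 250 bases are chr4:136143572-136143821. The gene spans are GENCODE's and the promoter starts RefSeq's. Both 250-base windows lie before the RefSeq start but inside the GENCODE span.
Id2: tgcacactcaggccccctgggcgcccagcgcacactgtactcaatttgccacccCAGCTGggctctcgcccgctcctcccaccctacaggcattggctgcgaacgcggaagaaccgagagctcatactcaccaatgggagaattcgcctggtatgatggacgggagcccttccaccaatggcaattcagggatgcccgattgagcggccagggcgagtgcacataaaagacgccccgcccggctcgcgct
Id3: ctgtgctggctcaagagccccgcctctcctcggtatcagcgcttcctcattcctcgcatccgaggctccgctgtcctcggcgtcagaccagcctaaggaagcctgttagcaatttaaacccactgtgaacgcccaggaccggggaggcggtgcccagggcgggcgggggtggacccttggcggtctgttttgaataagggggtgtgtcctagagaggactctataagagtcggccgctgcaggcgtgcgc
The *Id2* promoter held 1 E-box, CAGCTG, a form present in 16.3% of all promoters. The *Id3* promoter held 0, which says only that these letters are not in this window. The *Tcf3* promoter held 1, and the 3 annotated *Tcf12* promoters held 1, 2 and 1.

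After filtering, 6585 WT cells and 6377 DKO-severe cells were retained, with medians of 5616 and 8072 UMIs (unique molecular identifiers, 1 for each captured transcript). Levels are CPM, the UMIs of a gene summed over the cells of a gate per 1000000 UMIs of that gate; as the 3' kit counts 1 molecule per transcript, CPM needs no length scaling. Shares of cells with a gene were taken after every cell was thinned to 3800 UMIs, and the gates behind shares were redrawn on the thinned counts. The targeted genes were still counted in DKO-severe Foxp3-positive cells, *Tet2* at 71.1 CPM against 56.6 in WT and *Tet3* at 87.3 against 89.3; 3' counts need not show a deletion, so this does not check the labels. Gates were set by transcripts. The Cd4 Foxp3-negative gate (*Cd3* and *Cd4* but no *Cd8* or *Foxp3* UMI) held 1675 WT and 2413 DKO-severe cells, the Foxp3-positive gate 64 and 336, the Cd8 gate 3053 and 1736, the innate-like gate (*Cd3* and *Zbtb16*) 105 and 222, and the B gate (*Cd79a* with another B cell gene and no *Cd3*) 15 and 216, although the cells were prepared as TCRβ+. On thinned counts the Cd4 Foxp3-negative gate held 1193 WT and 1860 DKO-severe cells, against 1476 and 2316 cells of the full-depth gate with enough UMIs. Of the 1193 and 1860 cells, 1133 and 1706 belonged to the full-depth gate, and 1.51% and 5.05% had a *Foxp3* UMI at full depth. The redrawn Foxp3-positive gate held only 24 and 94 cells, of 55 and 329 deep enough. Values with the gates set on all UMIs are therefore given beside the *Id2* and *Id3* shares of the T cell gates. The shares of cells with E protein genes rest on the redrawn gates only. The 4 T cell markers summed to between 2753 and 4661 CPM in the T cell gates and to 58.3 and 70.4 CPM in the B gate. The 5 B cell markers summed to 3532 and 4721 CPM in the B gate and to at most 39.5 CPM in any T cell gate. All 4 Treg markers were found in Foxp3-positive cells (3368 and 3347 CPM in sum), but most of each sum was *Ikzf2*, at 2235 and 2641 CPM. *Foxp3* was at 200 and 118 CPM in WT and DKO-severe, *Il2ra* at 490 and 162 CPM and *Ctla4* at 442 and 426 CPM. The similar sums thus do not mean similar levels of each marker. In Foxp3-negative cells *Il2ra*, *Ikzf2* and *Ctla4* summed to 486 and 1287 CPM. All 5 innate-like markers were found in that gate, at 923 and 486 CPM in sum. Myeloid transcripts moved with genotype: all 5 markers were detected in every gate, and their sum was 100.2 to 1253 CPM in the WT T cell gates and 1219 to 4180 CPM in the DKO-severe ones.

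In Cd4 Foxp3-negative, Foxp3-positive and Cd8 cells *Id2* was the member with the largest difference between the mice. In Cd4 Foxp3-negative cells it stood at 107 and 278 CPM in WT and DKO-severe, 2.60-fold higher in the latter, a log2 ratio of 1.38 with a 95% interval of 1.28 to 1.47. The ratio was above that of 94.8% of the 6300 genes with enough counts. In this gate all 5 members passed the filter of 100 UMIs and 20 CPM, and *Id2* alone was past 2-fold, where 11.3% of all genes were. In Foxp3-positive cells *Id2* rested on only 18 WT UMIs, 22.2% of them from 1 cell, and stood at 39.2 and 182 CPM in WT and DKO-severe (log2 ratio 2.21, interval 1.55 to 2.98). *Id2* was again the 1 member of the 4 that passed the filter to be past 2-fold, against 12.2% of all genes. With 2 or more UMIs required of both *Cd4* and *Foxp3*, only 9 WT and 87 DKO-severe cells remained. The log2 ratio was then 0.49 (-0.34 to 1.47). In Cd8 cells *Id2* stood at 90.4 and 208 CPM in WT and DKO-severe, 2.31-fold higher (log2 ratio 1.21, 1.12 to 1.29), above 98.7% of genes. It was the 1 of 4 members past 2-fold there, where 2.58% of genes were.

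Innate-like cells held the highest *Id2* level of any gate in both mice. *Id2* stood at 961 and 743 CPM in WT and DKO-severe, a log2 ratio of -0.37 (-0.49 to -0.25). None of the 4 members that passed the filter was past 2-fold in this gate (6.58% of all genes were), nor were any of the 4 that passed in B cells (19.1% of all genes). The direction of *Id2* in innate-like cells was not stable. B cell or myeloid transcripts were found in 36 of the 105 WT and 112 of the 222 DKO-severe cells, and without those cells *Id2* stood at 1098 and 1181 CPM, a log2 ratio of 0.10 (-0.05 to 0.26). At equal depth the mean was 3.98 *Id2* UMIs per cell in WT and 5.13 in DKO-severe. These means are of the gate redrawn on thinned counts, 84 and 142 cells, against 98 and 220 of the full-depth gate with enough UMIs. Depth and the change of cells thus cannot be told apart in them. In B cells *Id2* was close to the floor, with 2 WT and 29 DKO-severe UMIs, the latter 19.4 CPM.

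More cells contributed *Id2*, and each carried more of it. At 3800 UMIs, 18.9% (16.7 to 21.2) of 1193 WT Cd4 Foxp3-negative cells and 46.0% (43.7 to 48.3) of 1860 DKO-severe cells had a UMI. Among cells with *Id2*, the mean was 1.94 UMIs in WT and 2.75 in DKO-severe, and 6.29% and 25.3% of all cells in the gate had 2 or more. In Cd8 cells the share was 23.9% (22.3 to 25.4) in WT and 38.4% (36.0 to 40.9) in DKO-severe, and in innate-like cells it was 90.5% and 93.0%. With gates set on all UMIs the shares were 20.1% and 44.6% in Cd4 Foxp3-negative, 23.4% and 38.1% in Cd8 and 87.8% and 82.7% in innate-like cells of WT and DKO-severe. The comparison at the low end was the B gate, with 0 of 14 WT cells (3 cells would be 21.4%, and the Clopper-Pearson bound is 23.2%) and 4.74% (2.19 to 8.80) of 190 DKO-severe cells. In cells with *Tyrobp*, *Fcer1g* and *Lyz2*, the myeloid-marker gate, 21.7% of 23 WT and 41.8% of 239 DKO-severe cells had *Id2*.

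The Cd4 and Cd8 ratios were about as large without the cells that held transcripts of other cell types. Myeloid markers summed to 149 and 2662 CPM in WT and DKO-severe Cd4 Foxp3-negative cells, and to 144 and 1219 CPM in Cd8 cells. With every cell that had a *Cd79a*, *Ms4a1*, *Lyz2*, *S100a8* or *S100a9* UMI left out, *Id2* stood at 119 and 307 CPM in Cd4 Foxp3-negative cells (log2 ratio 1.36) and at 92.5 and 221 CPM in Cd8 cells (1.25). *Zbtb16*-positive cells made up 1.19% of the WT and 3.61% of the DKO-severe Cd4 Foxp3-negative gate; without them *Id2* stood at 89.7 and 263 CPM. In Foxp3-positive cells the myeloid sum was 100.2 and 3542 CPM, and the log2 ratio of *Id2* was 2.27 over the 36 WT and 164 DKO-severe cells with none of those 5 transcripts.

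*Id3* followed another course. In Cd4 Foxp3-negative cells *Id3* was at 120 and 124 CPM in WT and DKO-severe, a log2 ratio of 0.05 (-0.05 to 0.15), and 27.2% of cells had it in both mice. This small ratio changed sign with the CPM total: it was -0.11 without immunoglobulin, haemoglobin, mitochondrial and ribosomal protein genes. It kept its sign, at 0.25, without cells with B cell or myeloid transcripts. In Cd8 cells *Id3* was at 94.8 and 58.8 CPM in WT and DKO-severe, a log2 ratio of -0.69 (-0.80 to -0.58) with only 1.73% of genes below it. The share of Cd8 cells with *Id3* was 21.4% (19.9 to 22.9) in WT and 14.6% (12.9 to 16.5) in DKO-severe. In Foxp3-positive cells *Id3* was at 152 and 128 CPM, in innate-like cells at 57.7 and 70.3 CPM and in B cells at 117 and 82.5 CPM, and in each of these gates the interval of the log2 ratio held 0. The lowest shares of cells with *Id3* were those of innate-like cells, 9.52% and 9.86%. With gates set on all UMIs *Id3* was in 26.9% of WT and 26.2% of DKO-severe Cd4 Foxp3-negative cells. The same shares were 27.3% and 29.2% in Foxp3-positive, 21.9% and 14.7% in Cd8 and 11.2% and 11.8% in innate-like cells.

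The order of *Id3* levels differed from that of *Id2*. WT Foxp3-positive cells had the highest *Id3* level and WT innate-like cells the lowest, and every neighbour in the order overlapped in its counting interval. For *Id2* the order ran from innate-like cells down to DKO-severe Cd4 Foxp3-negative, Cd8 and Foxp3-positive cells, then the same gates of WT, then B cells; the intervals of WT Foxp3-positive and of the B cells overlapped and those of no other neighbours did. Over the 4 T cell gates of both mice (8 points, which share libraries and differ in depth), Pearson's r of log2(CPM + 1) between *Id2* and *Id3* was -0.72. Among 4255 genes with enough counts, those with the pattern most like *Id2* were *Dtnbp1* (r = 0.99), *Coq10b* (0.98) and *Pdzd8* (0.98), and those most like *Id3* were *Ikbke* (0.98), *Cyb5a* (0.96) and *2510002D24Rik* (0.96).

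**Figure D1:**
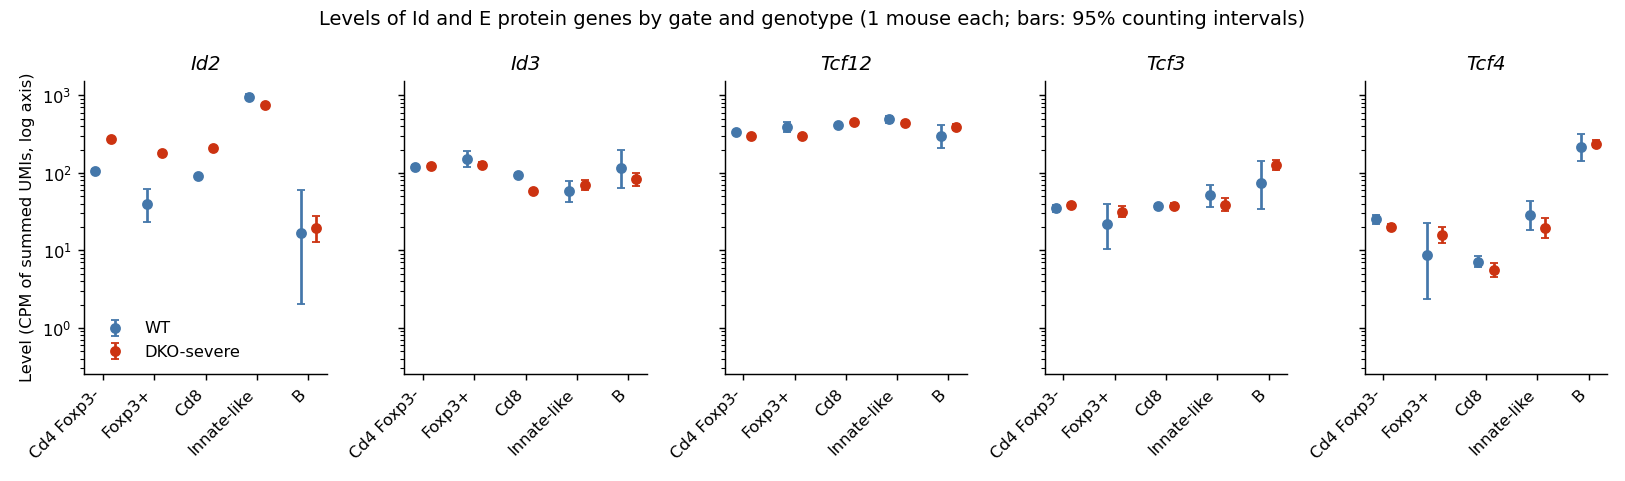
Level of each gene (CPM of summed UMIs, log axis) in 5 gates of the WT (blue) and DKO-severe (red) mouse, 1 mouse each; bars are 95% counting intervals. *Id2* was higher in DKO-severe in Cd4 Foxp3-negative, Foxp3-positive and Cd8 cells, *Tcf12* lay between 300 and 495 CPM in every gate, and *Tcf4* was above 200 CPM in B cells only.

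Over the whole Cd4 Foxp3-negative, Foxp3-positive and Cd8 gates the ratios of the E protein genes were nearer to 0 than that of *Id2*. *Tcf12* (ENSMUSG00000032228, chromosome 9, 71842688 to 72111871), which encodes HEB, was the leading E protein transcript of the T cell gates. *Tcf12* was at 337 and 304 CPM in WT and DKO-severe Cd4 Foxp3-negative cells (log2 ratio -0.15), 390 and 300 CPM in Foxp3-positive cells (-0.38), 411 and 459 CPM in Cd8 cells (0.16), 495 and 437 CPM in innate-like cells (-0.18), and 300 and 389 CPM in B cells. At 3800 UMIs the share with *Tcf12* was 63.8% and 62.9% in Cd4 Foxp3-negative cells of WT and DKO-severe and 71.8% and 76.4% in Cd8 cells. *Tcf12* gave most of the E protein UMIs of every T cell gate. The ratio of innate-like cells became 0.20 when cells with B cell or myeloid transcripts were left out.

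*Tcf3* (ENSMUSG00000020167, chromosome 10, 80409514 to 80433647), which encodes the E2A proteins, was at 35.0 and 38.9 CPM in WT and DKO-severe Cd4 Foxp3-negative cells and at 37.0 and 37.9 CPM in Cd8 cells. In B cells *Tcf3* was at 75.0 (9 UMIs) and 126 CPM in WT and DKO-severe, and only the DKO-severe B cell interval lay above those of both T cell gates. Its share of cells at equal depth was 10.6% and 13.3% in Cd4 Foxp3-negative cells and 28.6% and 28.4% in B cells. In no gate did the interval of the *Tcf3* log2 ratio exclude 0, while in the Cd4 cells with *Pdcd1* and *Cxcr5* but no *Il21* it was -1.28 (-2.33 to -0.01) on 8 WT UMIs.

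*Tcf4* (ENSMUSG00000053477), which encodes E2-2, is known from plasmacytoid dendritic cells and B cells. It was at 217 and 237 CPM in WT and DKO-severe B cells, where 64.3% of 14 and 57.4% of 190 cells had a UMI. Of the 26 WT UMIs 42.3% came from 1 cell, and the WT B gate also held 3416 CPM of myeloid markers (*Lyz2* 2524 CPM) against 140 CPM in DKO-severe, whose part in this level was not tested. In Cd4 Foxp3-negative cells *Tcf4* was at 25.2 and 20.3 CPM (log2 ratio -0.31), with 9.76% of the WT and 9.09% of the DKO-severe UMIs from 1 cell each. Without cells with B cell or myeloid transcripts this ratio was -0.61 (-0.94 to -0.29). In Cd8 cells *Tcf4* was at 7.19 and 5.56 CPM. Within states it was lower in DKO-severe in the Cd4 cells without *Il21*, outside the *Ccr7* state and the state with *Pdcd1* and *Cxcr5*, at 33.6 and 16.8 CPM (interval of the log2 ratio -1.32 to -0.68), and in Cd8 cells with *Ccr7* and no granzyme, at 8.04 and 3.57 CPM (-1.17, -1.88 to -0.52). In innate-like cells *Tcf4* was at 28.9 and 19.7 CPM (-0.55, -1.30 to 0.24). The share of cells with *Tcf4* was 5.45% and 4.35% in Cd4 Foxp3-negative cells and 1.75% and 1.41% in Cd8 cells. The intervals of these Cd4 and Cd8 shares did not overlap in either mouse.

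Inhibitor transcripts were more numerous relative to E protein transcripts in DKO-severe than in WT Cd4 and Cd8 cells. In Cd4 Foxp3-negative cells there were 0.569 (0.540 to 0.600) UMIs of *Id2* and *Id3* for each UMI of *Tcf3*, *Tcf12* and *Tcf4* in WT, and 1.11 (1.07 to 1.14) in DKO-severe. The ratio went from 0.456 to 0.890 in Foxp3-positive cells and from 0.407 to 0.532 in Cd8 cells. Innate-like cells had 1.77 in WT and 1.64 in DKO-severe, and B cells 0.225 and 0.135. Both sides of the ratio differed. The inhibitors summed to 226 and 402 CPM in WT and DKO-severe Cd4 Foxp3-negative cells, and the E protein genes to 397 and 363 CPM. In Foxp3-positive cells these sums were 192 and 310 CPM and 420 and 348 CPM. In Cd8 cells they were 185 and 267 CPM and 455 and 502 CPM. Between the inhibitors, the number of *Id2* UMIs per *Id3* UMI was 0.893 in WT and 2.24 in DKO-severe Cd4 Foxp3-negative cells and 0.954 and 3.54 in Cd8 cells. Innate-like cells had 16.6 and 10.6, and B cells 0.214 and 0.236. These are ratios of transcripts, and no protein was measured.

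*Id2* and *Id3* were then set against each other cell by cell at 3800 UMIs. In WT Cd4 Foxp3-negative cells, 162 of 1193 cells had *Id2* without *Id3*, 262 had *Id3* without *Id2* and 63 had both, where the product of the shares gives 61.3. In DKO-severe, 670 of 1860 cells had *Id2* alone, 320 had *Id3* alone and 185 had both, where the product gives 232. The share with *Id3* was thus 28.0% (22.2 to 34.4) in *Id2*-positive and 27.1% (24.3 to 30.0) in *Id2*-negative WT cells, and 21.6% (18.9 to 24.6) and 31.8% (29.0 to 34.8) in DKO-severe. Cd8 cells gave the same contrast: in WT both genes were found in 148 of 2914 cells against a product of 149, and in DKO-severe in 58 of 1560 against 87.5. The share of Cd8 cells with *Id3* was 21.3% in *Id2*-positive and 21.5% in *Id2*-negative WT cells, and 9.68% and 17.7% in DKO-severe. Over each of these whole gates the number of cells with both was thus close to the product in the WT mouse and below it in the DKO-severe mouse. In DKO-severe Cd4 Foxp3-negative cells the observed number was 0.797 times the product, but 0.894 times with another thinning seed, 0.612 times at 2500 UMIs and 0.963 times without thinning, so the size of this shortfall varied with the random draw and the depth. In DKO-severe Cd8 cells the values were 0.663, 0.627, 0.610 and 0.766 in the same order. With gates set on all UMIs they were 0.813 in Cd4 Foxp3-negative and 0.681 in Cd8 cells, against 1.06 and 0.974 in WT. In innate-like cells 68 of 84 WT and 123 of 142 DKO-severe cells had *Id2* alone, and *Id3* without *Id2* was found in 0 WT cells (3 cells would be 3.57%, and the Clopper-Pearson bound is 4.30%) and in 5 DKO-severe cells. With that gate set on all UMIs, 1 of 98 WT cells and 14 of 220 DKO-severe cells had *Id3* alone.

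**Figure D2:**
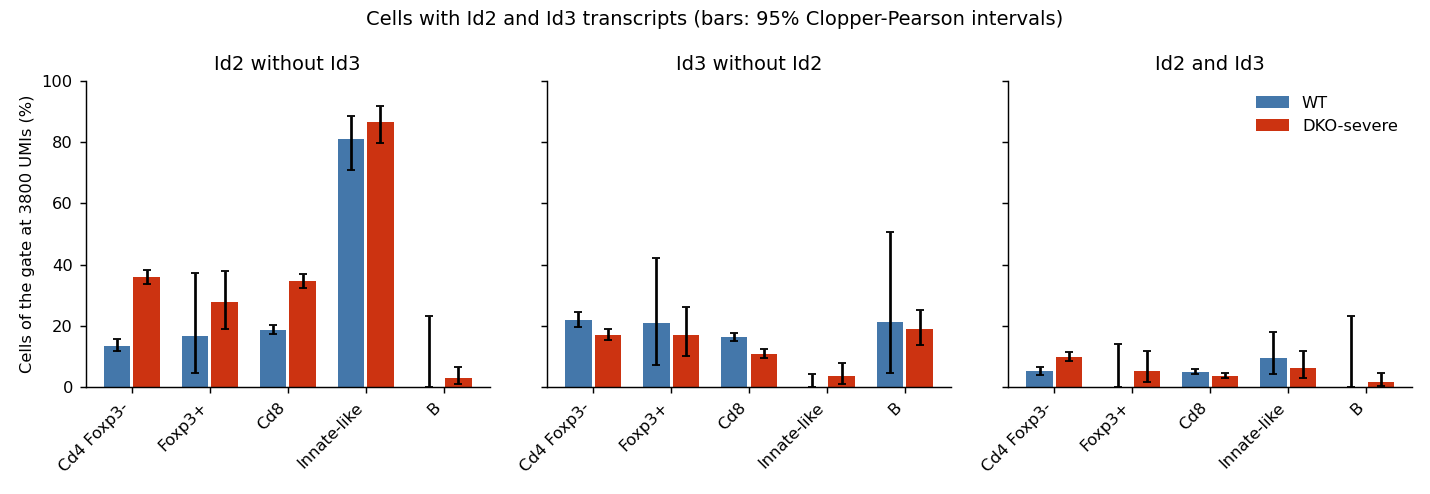
Percent of cells of each gate with *Id2* without *Id3*, *Id3* without *Id2* or both, after thinning to 3800 UMIs, in the WT (blue) and DKO-severe (red) mouse; bars are 95% Clopper-Pearson intervals. *Id2* without *Id3* went from 13.6% to 36.0% in Cd4 Foxp3-negative and from 18.8% to 34.7% in Cd8 cells, and was above 80% in innate-like cells of both mice.

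Within the Cd4 Foxp3-negative gate, states were set apart by other transcripts. Cells with *Ccr7*, a lymph node homing receptor of naive and central memory cells, and none of *Pdcd1*, *Cxcr5* and *Il21* numbered 848 in WT and 304 in DKO-severe. In these cells *Id2* was at 64.2 and 134 CPM in WT and DKO-severe (log2 ratio 1.06, 0.83 to 1.28), and *Id3* at 103 and 84.3 CPM (-0.30, -0.53 to -0.06). *Id2* was thus higher in DKO-severe also among cells without these follicular helper transcripts. Cells with *Il21*, the cytokine of follicular helper cells, numbered 20 and 762, and *Id2* was at 71.5 CPM (8 UMIs) and 282 CPM, with *Id3* at 161 and 137 CPM. The 172 DKO-severe cells with *Pdcd1* and *Cxcr5* but no *Il21* UMI stood apart: *Id2* was at 121 CPM and *Id3* at 181 CPM, the highest *Id3* level of the DKO-severe Cd4 states and the 1 among them where *Id3* exceeded *Id2*. Only 12 WT cells fell in that state. All other Cd4 Foxp3-negative cells, 795 in WT and 1175 in DKO-severe, had the highest *Id2* level of these 4 states, 155 and 341 CPM, with *Id3* at 137 and 111 CPM.

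The pairing per cell was taken in the same DKO-severe states, set on all UMIs, with *Id2* and *Id3* read at 3800 UMIs. Of 748 cells with *Il21*, 108 had both genes, where the product gives 120. Of 167 cells with *Pdcd1* and *Cxcr5* but no *Il21*, 55 had *Id3* alone, 29 had *Id2* alone and 9 had both, where the product gives 14.6. In the *Ccr7* state 16 of 297 cells had both against a product of 16.0, and in the remaining cells 87 of 1104 against 121. The count with both was thus at the product in the *Ccr7* state and below it in the others, but counting intervals parted only in the remaining cells. There *Id3* was in 16.7% (13.6 to 20.2) of *Id2*-positive and 29.1% (25.5 to 33.0) of *Id2*-negative cells. The same intervals overlapped in the state with *Il21* and in that with *Pdcd1* and *Cxcr5*. States redrawn on thinned counts gave 78 against 73.3 of 399 cells with *Il21*, so the side of the product was not stable in the *Il21* state. Cells that contained *Cntn5*, numbering 808 in DKO-severe, had *Id2* at 235 CPM and *Id3* at 131 CPM. In dividing cells (*Mki67* and *Top2a*) of DKO-severe, *Id2* was at 192 CPM and *Id3* at 101 CPM.

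In the Cd8 gate *Id2* was higher in DKO-severe in the granzyme-positive cells and lower in those with *Ccr7*. Cells with *Gzma*, *Gzmb* or *Gzmk* numbered 190 in WT and 582 in DKO-severe. In them *Id2* was at 158 and 521 CPM in WT and DKO-severe (log2 ratio 1.72, 1.52 to 1.93), and *Id3* at 86.3 and 36.0 CPM (-1.26, -1.61 to -0.91). In the cells with *Ccr7* and no granzyme, 1760 and 617 in number, *Id2* was at 86.0 and 61.9 CPM (-0.48, -0.64 to -0.31) and *Id3* at 88.7 and 63.8 CPM (-0.48, -0.64 to -0.31). *Id3* was therefore lower in DKO-severe in both of these states. The rest of the gate, 1103 and 537 cells, had *Id2* at 84.8 and 121 CPM (0.51, 0.35 to 0.68) and *Id3* at 107 and 72.7 CPM. At equal depth, with the state set on all UMIs, 66.6% of 497 DKO-severe granzyme-positive cells had *Id2* alone and 5.03% had *Id3* alone, against 25.6% and 11.7% of 180 WT cells. Both genes were found in 17 of these 497 cells, where the product gives 29.4. In DKO-severe cells with *Ccr7* and no granzyme they were found in 25 of 615 against 20.5, and in the rest in 20 of 516 against 27.1. The shortfall of the whole Cd8 gate was thus absent in the *Ccr7* state.

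**Figure D3:**
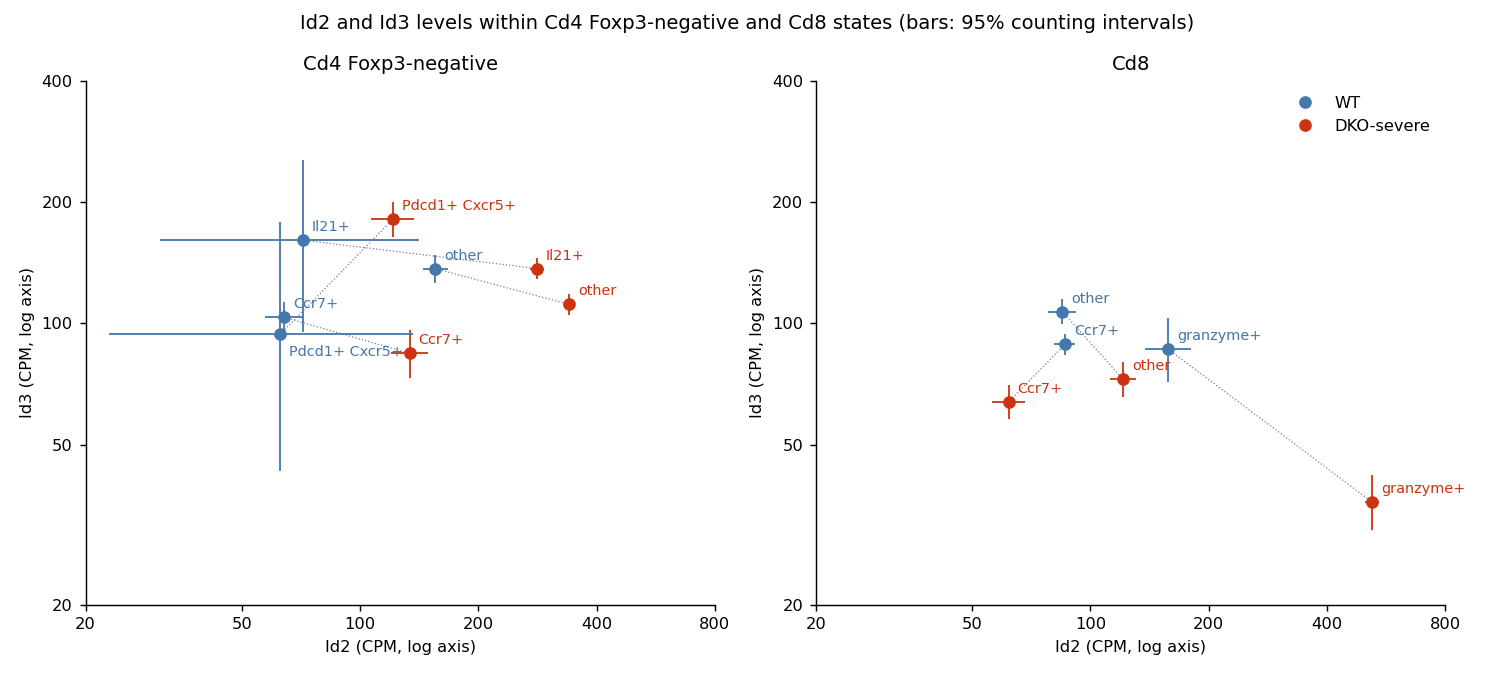
*Id2* (x axis) and *Id3* (y axis) levels in CPM on log axes, in states of the Cd4 Foxp3-negative gate (left) and the Cd8 gate (right) in WT (blue) and DKO-severe (red); bars are 95% counting intervals and dotted lines join the same state. Cd8 granzyme-positive cells of DKO-severe lay at 521 and 36.0 CPM, and Cd4 cells with *Pdcd1* and *Cxcr5* but no *Il21* at 121 and 181 CPM.

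Innate-like cells were split by coreceptor. *Zbtb16*, which set the gate, was itself at 476 and 212 CPM in WT and DKO-severe. Those with neither *Cd4* nor *Cd8* transcripts, 68 in WT and 109 in DKO-severe, had *Id2* at 1141 and 1212 CPM (log2 ratio 0.09, -0.07 to 0.25). Those with *Cd4*, 20 in WT and 87 in DKO-severe, had *Id2* at 1098 and 547 CPM (-1.01, -1.24 to -0.76). Those with *Cd8*, only 12 in WT and 15 in DKO-severe, went the other way, with *Id2* at 416 and 788 CPM (0.92, 0.43 to 1.44). The lower *Id2* level of the whole gate was thus found in the *Cd4*-positive cells and in neither of the other states.

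Cells with *Id2* alone and cells with *Id3* alone were compared for other transcripts at equal depth, in genes the classes did not use. In DKO-severe Cd4 Foxp3-negative cells, *Gzmb* was found in 13.0% (10.5 to 15.8) of 670 *Id2*-only and 2.19% (0.884 to 4.45) of 320 *Id3*-only cells. *Tbx21*, the gene of the effector factor T-bet, was found in 11.2% (8.91 to 13.8) and 0.938% (0.194 to 2.72). The reverse held for *Cxcr5*, the follicular homing receptor, at 5.82% (4.17 to 7.87) and 21.9% (17.5 to 26.8), for *Pdcd1* at 27.6% and 38.8%, and for *Tcf7*, the gene of TCF-1, at 40.0% and 67.5%. *Il21* was at 20.4% and 18.1%, within the intervals of both. *Il7r* was found in more *Id2*-only cells, 46.4% against 30.6%, and the same order held in WT. For *Cxcr5* the WT shares were 4.32% and 4.96% and for *Tcf7* 71.0% and 77.1%, with overlapping intervals. *Tbx21* parted the WT classes as well, at 8.02% (4.34 to 13.3) and 1.53% (0.418 to 3.86). With gates set on all UMIs the DKO-severe shares were 12.6% and 2.07% for *Gzmb*, 10.2% and 1.03% for *Tbx21*, and 6.28% and 20.7% for *Cxcr5*.

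In Cd8 cells *Gzmb* parted the same classes more widely than in Cd4 cells, and *Cxcr5* and *Pdcd1* less. In DKO-severe, *Gzmb* was found in 42.9% (38.7 to 47.2) of 541 *Id2*-only cells and 1.18% (0.143 to 4.19) of 170 *Id3*-only cells. *Gzma* was at 35.7% and 4.12%, *Tbx21* at 33.5% and 10.0%, and *Tcf7* at 44.2% and 67.1%. *Cxcr5* was at 4.07% and 9.41% and *Pdcd1* at 5.55% and 5.29%, with overlapping intervals. With gates set on all UMIs the *Cxcr5* shares were 3.41% (2.06 to 5.27) and 10.2% (6.14 to 15.6), which do not overlap. Those of *Pdcd1* were 4.48% and 5.08%, with overlapping intervals. In WT *Gzmb* was at 2.19% and 0.210%, *Tbx21* at 4.39% and 7.35%, and *Tcf7* at 74.4% and 74.2%, with intervals that overlapped for each of these genes. *Tcf12* was found in 71.5% of *Id2*-only and 79.4% of *Id3*-only DKO-severe Cd8 cells.

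**Figure D4:**
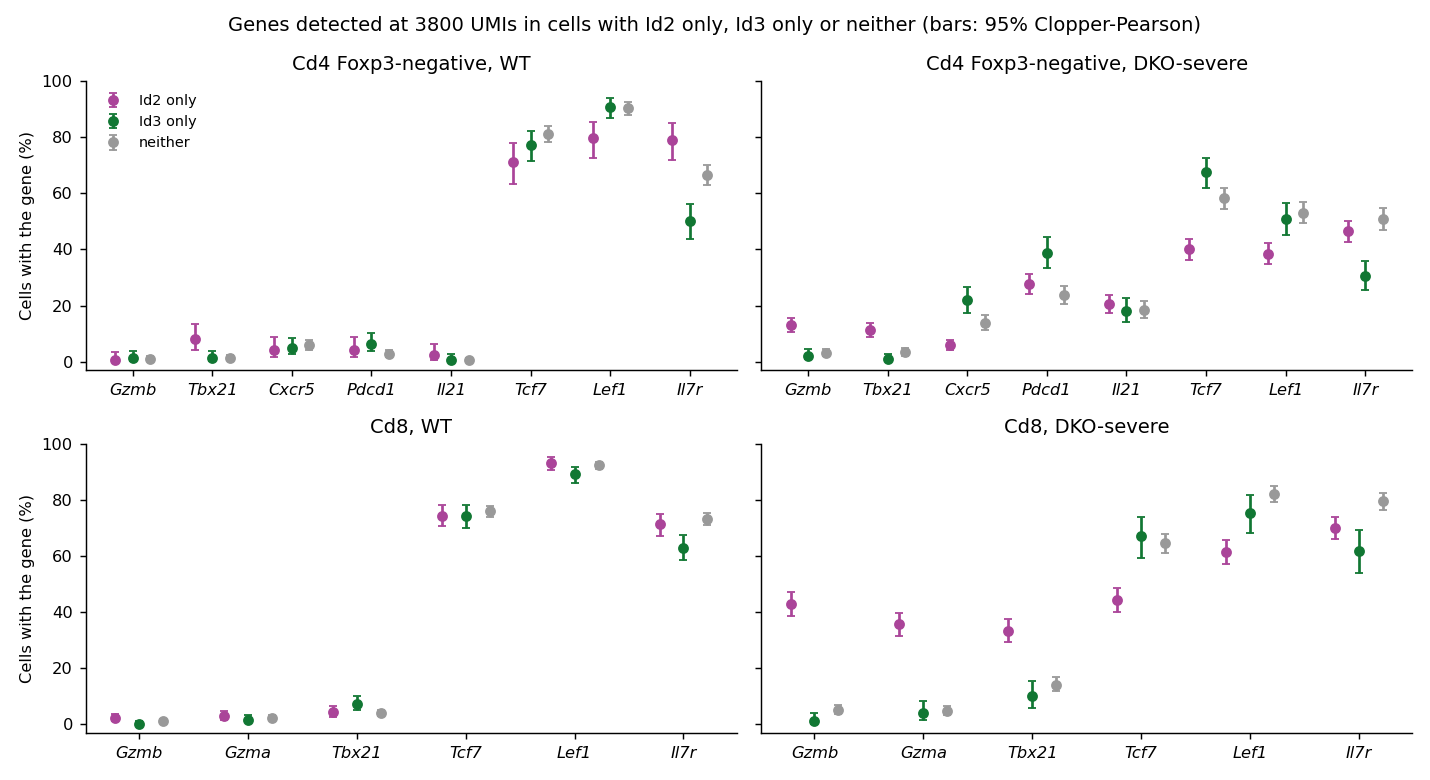
Percent of cells with each gene at 3800 UMIs in cells with *Id2* only (purple), *Id3* only (green) or neither (grey), for the Cd4 Foxp3-negative (top) and Cd8 gate (bottom) of WT (left) and DKO-severe (right); bars are 95% Clopper-Pearson intervals. In DKO-severe Cd8 cells *Gzmb* was at 42.9% of *Id2*-only and 1.18% of *Id3*-only cells, and in WT at 2.19% and 0.210%.

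Other genes of the pathway were taken from lists of known partners, inducers and targets. Of 9 other Id genes, partners and corepressors, 1 passed the filter in Cd4 Foxp3-negative cells, the corepressor gene *Cbfa2t2*, at 49.0 and 54.0 CPM in WT and DKO-severe. The others of these 9 are given as raw UMIs, which do not compare as levels because the gates differ in size. All genes together had 9777859 WT and 23314133 DKO-severe UMIs in Cd4 Foxp3-negative cells, and 20998846 and 16537400 in Cd8 cells. Below the filter, the E protein partner *Ascl2*, known from follicular helper cells, had 2 WT and 180 DKO-severe UMIs, and *Msc* had 4 and 220. In Cd8 cells *Ascl2* had 2 and 1 and *Msc* 6 and 9. In Cd4 Foxp3-negative cells *Id1* had 3 and 30 UMIs, *Lyl1* 8 and 63, *Cbfa2t3* 16 and 138, and *Id4* 0 in both. *Cbfa2t2* was the 1 gene of these 9 that passed in each T cell gate and was past 2-fold in none of them, and in B cells none passed. Of 4 inducers of *Id3* downstream of the T cell receptor, 2 passed the filter, *Nfatc1* being past 2-fold (86.2 and 181 CPM) and *Egr1* not (39.4 and 60.8 CPM). Below the filter, *Egr2* was at 7.16 and 18.6 CPM and *Egr3* at 13.3 and 10.6 CPM.

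Past 2-fold were 11.3% of all genes in Cd4 Foxp3-negative and 2.58% in Cd8 cells. Of 15 genes tied to E proteins in lymphocytes, 8 passed the filter in Cd4 Foxp3-negative cells and 3 of them were past 2-fold. *Foxo1*, a factor that maintains homing and survival genes, was lower in DKO-severe (344 and 149 CPM). *Cxcr5* (17.0 and 42.6 CPM) and *Ebf1*, a B cell factor (13.6 and 49.1 CPM), were higher, but both passed the filter only through their DKO-severe level, so that a gene entering this way had to differ. Of the B cell markers in this gate, *Pax5* was at 3.27 and 12.2 CPM and *Cd79a* at 13.6 and 10.2 CPM, and their part in the *Ebf1* values was not tested. In Cd8 cells 5 of the 15 passed and none was past 2-fold, with *Foxo1* at 271 and 170 CPM.

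Of 6 genes tied to Id2 in effector cells, 2 passed the filter in Cd4 Foxp3-negative and 3 in Cd8 cells. Past 2-fold were *Gzmb* in Cd4 Foxp3-negative cells (3.48 and 59.7 CPM) and *Gzmb* (4.95 and 149 CPM) and *Tbx21* (18.4 and 70.0 CPM) in Cd8 cells. Each of these also passed the filter only through DKO-severe, so they are given as levels. The same held for *Gzmb*, higher in DKO-severe, in Foxp3-positive cells, where it alone passed, and in innate-like cells. Of the 3 that passed in innate-like cells, *Zbtb16*, which set that gate, was past 2-fold lower (476 and 212 CPM). In these 2 gates 12.2% and 6.58% of all genes were past 2-fold. Of 6 genes tied to Id3, 5 passed in Cd4 Foxp3-negative and in Cd8 cells. In Cd4 Foxp3-negative cells *Bcl6* (46.1 and 93.3 CPM) was higher and *Lef1* (1122 and 249.9 CPM) lower, beside *Cxcr5*. In Cd8 cells none of the 5 was past 2-fold, with a median log2 ratio of 0.12.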

How the data were processed

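The authors deposited UMI counts per gene and cell as 1 filtered matrix per genotype, made per the file headers with Cell Ranger 7.1.0; the submitters' processing notes also name Seurat and the mm10 build, and counts were not normalized. The library used the 10x 3' kit v3.1. The 2 matrices shared 0 barcodes; 3 WT barcodes with more of the other hashtag were left out. Cells needed 500 detected genes and no more than 10% mitochondrial UMIs. Scrublet (scanpy 1.11.5) marked 0 doublets at its automatic threshold in either matrix, so the highest 6% of scores were removed. Retained cells under 3800 UMIs, 689 WT (10.5%) and 477 DKO-severe (7.48%), were left out of shares, and gates for shares were redrawn on the thinned counts as planned. Gates set on all UMIs were added as an alternative after seeing the data.

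Gates asked for 1 or more UMI of each positive gene. CPM sums raw counts over cells. Intervals are 95%, exact Poisson for levels, exact conditional binomial for log2 ratios of DKO-severe over WT, and Clopper-Pearson for shares; they cover counting error only. Sums under 3 UMIs were set to 3 in ratios. Calls past 2-fold were made on genes that reached 100 UMIs over both mice and averaged 20 CPM. The ratio and interval functions were tested on simulated data.

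The named genes are the 5 members in every gate, *Tet2*, *Tet3*, the marker genes, 5 gene lists and the 3 genes most like *Id2* and *Id3* over 8 T cell points; *Gzma*, *Pdcd1*, *Il21* and *Cntn5* defined states. A gene planned for 1 list and for the *Ccr7* states is not reported here; those states rest on *Ccr7* alone, a definition chosen after seeing the data. The members and lists were chosen with earlier results of these data known. Alternatives changed doublet removal, cell filter, gates, thinning, weight of cells, CPM total, pseudocount and filter. Promoter letters are RefSeq's (GRCm38.p6), and gene positions GENCODE's on the same build.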

Additional observations from a re-analysis of the deposited data

Results flagged for a closer look

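*Id2* and *Tcf12* had log2 ratios of DKO-severe over WT with opposite signs in different gates, each with a counting interval off 0. The difference between gates was not tested, as there was 1 mouse per genotype. For *Id2* the ratio was 1.38 in Cd4 Foxp3-negative, 2.21 in Foxp3-positive and 1.21 in Cd8 cells, and -0.37 in innate-like cells. For *Tcf12* it was 0.16 in Cd8 cells and -0.15 in Cd4 Foxp3-negative, -0.38 in Foxp3-positive and -0.18 in innate-like cells. The innate-like ratios of both genes changed sign when cells with B cell or myeloid transcripts were left out.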

How the results depend on the processing

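Of 225 log2 ratios recomputed under 9 alternatives, 199 stayed within the counting interval of the reported value, 23 moved out of it with that interval holding 0 or the sign kept, and 3 whose interval excluded 0 changed sign. In all, 18 values of 10 ratios had another sign than the reported one. Of 740 shares, 631 stayed within their interval and 109 moved; with gates set on all UMIs 72 stayed and 2 moved, both of *Id2* in DKO-severe innate-like cells. The causes were not tested beyond what an alternative's own construction shows. For *Id2* in innate-like cells the ratio was -0.087 with the highest 12% of doublet scores removed, 0.10 without cells with B cell or myeloid transcripts and -0.042 with equal weight per cell. *Tcf12* in innate-like cells became 0.20 without cells with B cell or myeloid transcripts and 0.0041 with equal weight, and *Id3* became -0.24 with 12% of doublet scores removed. *Id2* in Cd4 Foxp3-negative cells was 1.55 with disjoint gates, 1.52 with gates of 2 or more UMIs, 1.52 with equal weight and 1.22 without immunoglobulin, haemoglobin, mitochondrial and ribosomal protein genes, and in Cd8 cells 1.57 with equal weight. *Id3* in Cd4 Foxp3-negative cells was 0.25 without cells with B cell or myeloid transcripts, 0.18 with equal weight and -0.11 without those gene classes. With 2 or more UMIs for the gate, Foxp3-positive cells gave 0.49 for *Id2* and 1.18 for *Id3*, on 9 WT cells.

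Without a filter on low values, 4382, 4572, 2246, 2392 and 4415 genes were past 2-fold in the Cd4 Foxp3-negative, Foxp3-positive, Cd8, innate-like and B gates. At 2500 UMIs, *Id2* was in 15.9% of WT and 36.7% of DKO-severe Cd4 Foxp3-negative cells and in 17.6% and 33.2% of Cd8 cells; without thinning these were 26.0%, 58.9%, 33.2% and 53.6%. *Id3* was in 22.2%, 19.3%, 16.3% and 10.4% of the same cells at 2500 UMIs and in 33.0%, 39.0%, 31.5% and 26.1% without thinning. In WT Cd4 Foxp3-negative cells both genes were in 3.40% at 2500 UMIs and 9.19% without thinning, *Id2* alone in 16.8% without thinning and *Id3* alone in 18.8% at 2500 UMIs. In DKO-severe, both were in 4.32% and 22.1%, and *Id2* alone in 32.3% and *Id3* alone in 14.9% at 2500 UMIs. Another thinning seed gave 43.4% with *Id2*, 33.7% with *Id2* alone and 15.4% with *Id3* alone; gates of 2 or more UMIs gave 50.5%, 39.5% and 15.5%. No value carries an error between mice, and WT Foxp3-positive and B cells were too few for firm levels.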
